A study of Homo sapiens with 6 samples.

Results

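The genes described are 7 matrix metalloproteinases (MMPs), namely MMP1, MMP2, MMP3, MMP10, MMP13, MMP14 and MMP15, and 3 tissue inhibitors of metalloproteinases, TIMP1, TIMP2 and TIMP3. They were chosen by name and make up 10 of the 58884 gene identifiers in the expression table, and all 10 were found in it. RNA sequencing covered 3 established human thyroid cancer lines in 6 libraries: BHT-101 cells given siCRABP2 (a small interfering RNA that targets CRABP2) or siControl (a control siRNA), FTC-133 cells given siCRABP2 or siControl, and 8505C cells carrying a CRABP2 vector or an empty vector. BHT-101 and 8505C are anaplastic carcinoma lines and FTC-133 is a follicular carcinoma line, and every library came from total RNA of cells that had been transfected, controls included. Each group holds 1 library, and differences within a line were therefore not checked against replicates. The sources used here do not say whether the 8505C transfectants were pools or single clones.

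MMPs are zinc-dependent proteases that cut collagens and other proteins of the extracellular matrix. They are made as inactive precursors, and TIMPs block the active enzymes by binding at the zinc site. MMP1 and MMP13 are collagenases, MMP2 is a gelatinase, MMP3 and MMP10 are stromelysins, and MMP14 and MMP15 are anchored in the cell membrane, where MMP14 with TIMP2 as a bridge activates the MMP2 precursor. CRABP2 encodes a binding protein that delivers retinoic acid to receptors in the nucleus, and these receptors are known to repress collagenase and stromelysin genes by interfering with the transcription factor AP-1. In thyroid cancer, MMPs are studied for their part in invasion.

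All 7 enzymes share a coding stretch of 33 bases around the zinc site, shown because it is what makes these genes a family and because it shows how alike MMP3 and MMP10 are. The sequences were read 5′ to 3′ on the coding strand of GRCh38 with GENCODE release 29, and the capitals mark the codons of the 3 histidines that hold the zinc.
MMP1: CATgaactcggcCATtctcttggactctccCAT
MMP13: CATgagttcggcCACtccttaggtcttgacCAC
MMP2: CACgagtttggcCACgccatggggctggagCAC
MMP3: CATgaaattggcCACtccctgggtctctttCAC
MMP10: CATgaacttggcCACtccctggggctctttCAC
MMP14: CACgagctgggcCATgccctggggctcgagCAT
MMP15: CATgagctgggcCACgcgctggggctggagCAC
The stretches lie at chr11:102795549-102795581 (MMP1, minus strand), chr11:102952115-102952147 (MMP13, minus strand), chr16:55491827-55491859 (MMP2, plus strand), chr11:102840535-102840567 (MMP3, minus strand), chr11:102776718-102776750 (MMP10, minus strand), chr14:22843283-22843315 (MMP14, plus strand) and chr16:58040563-58040595 (MMP15, plus strand). MMP2 carries it in exon 8 and the other 6 in exon 5. Over these bases MMP10 differed from MMP3 at 2 positions, whereas MMP1 differed from MMP3 at 9 and MMP15 from MMP14 at 5. Over the whole coding sequence MMP3 and MMP10 were identical at 85.15% of aligned bases, with a longest shared run of 96 bases in their transcripts. No other pair of the 7 enzymes, and no pair of the 3 inhibitors, shared a run above 18 bases. Reads could therefore have been exchanged between MMP3 and MMP10, and values of that pair are uncertain to this extent.

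For 5 of the 10 genes (MMP10, MMP14, MMP15, TIMP1 and TIMP3) RefSeq gave the bases before the gene start on GRCh38.p14. These were searched on both strands for TGANTCA, because AP-1 drives stromelysin and collagenase promoters. The pattern is looser than the AP-1 consensus, since any base may stand in the middle. MMP10 held 1 match, TGAATCA, 67 bases before its start, with TATAAA 31 bases before it. The other 4 held neither. The A in the middle of TGAATCA was admitted only by the looser pattern. Of 35116 RefSeq promoter windows, 6.57% held TGANTCA and 10.7% held TATAAA. A pattern of NF-kB sites (GGG and CC, 5 bases apart) was in none of the MMP10 bases and in those of the other 4 genes, with 1 match in MMP14, 3 each in MMP15 and TIMP1 and 10 in TIMP3, and in 54.4% of all windows. A direct repeat of GGTCA, 5 bases apart, was in none of the 5 and in 0.0769% of all windows. That pattern does not have the spacing of a retinoic acid response element, and such elements were not searched for. The 250 bases before MMP10, at chr11:102780629-102780878 on the minus strand, are shown because its reads differed most between the FTC-133 libraries after those of MMP1, and the capitals mark the 2 matches.
MMP10 promoter: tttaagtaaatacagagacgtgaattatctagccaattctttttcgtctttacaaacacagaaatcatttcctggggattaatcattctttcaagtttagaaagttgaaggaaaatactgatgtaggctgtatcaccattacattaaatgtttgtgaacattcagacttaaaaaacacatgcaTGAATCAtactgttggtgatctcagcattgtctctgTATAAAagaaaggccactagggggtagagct
A match describes these letters and is not a bound site.

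The table gives FPKM (fragments or reads per kilobase of exon, scaled to the library total), a level that can be compared between genes because it is per length. Library totals recovered from these values ran from 22084110 to 27958622 reads. CRABP2 followed the labels, at 11.4 FPKM with siCRABP2 and 27.3 with siControl in BHT-101, 0.17 with siCRABP2 and 8.94 with siControl in FTC-133, and 38.04 with the CRABP2 vector and 0.607 with the empty vector in 8505C. Of the thyroid markers, TG and SLC5A5 were at or near 0 in all 6 libraries (at most 0.047 FPKM). NKX2-1 was at 12.4 to 22.6 FPKM in FTC-133 and 13.1 to 16.7 FPKM in 8505C, PAX8 was above 1 FPKM in FTC-133 only, and BHT-101 had neither above 1 FPKM. The leukocyte marker PTPRC did not exceed 0.024 FPKM in any library.

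The levels of MMP2 and MMP14 lay much farther apart between the lines than between the 2 libraries of a line. Those of MMP1 did so only between 8505C and the other lines. Those of MMP3 did so mainly there, being at most 0.417 FPKM in FTC-133 and 0 in BHT-101. Those of MMP13 did not lie farther apart between the lines. 8505C was dominated by MMP1 and MMP3, FTC-133 by MMP14 and MMP2, and BHT-101 had almost no MMP1 or MMP3 but held MMP14, MMP2 and a high TIMP1. Within a line, a gene was counted as measured at 1 FPKM or more in 1 or both libraries, and as called by size at a difference of 1 or more (2-fold) on log2(FPKM + 1), a scale that understates the change of low genes. In BHT-101, 0 of the 6 measured genes were called between siCRABP2 and siControl, against 0.589% of all 12055 measured genes called higher and 0.539% called lower. In FTC-133, 1 of 6 was called, MMP1, which was higher with siCRABP2, against a background of 2.36% of 12832 genes higher and 2.35% lower. In 8505C, 2 of 9 were called, MMP13 and TIMP2, which were both lower with the CRABP2 vector, against 1.85% of 11731 genes higher and 1.86% lower. MMP1 in FTC-133 and MMP13 in 8505C reached 1 FPKM only in the library where they were higher, so the filter set the direction of these calls. The median difference of the measured genes was -0.15 in BHT-101, 0.38 in FTC-133 and -0.21 in 8505C, beside 0.01, -0.04 and 0.02 over all measured genes.

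**Figure D1:**
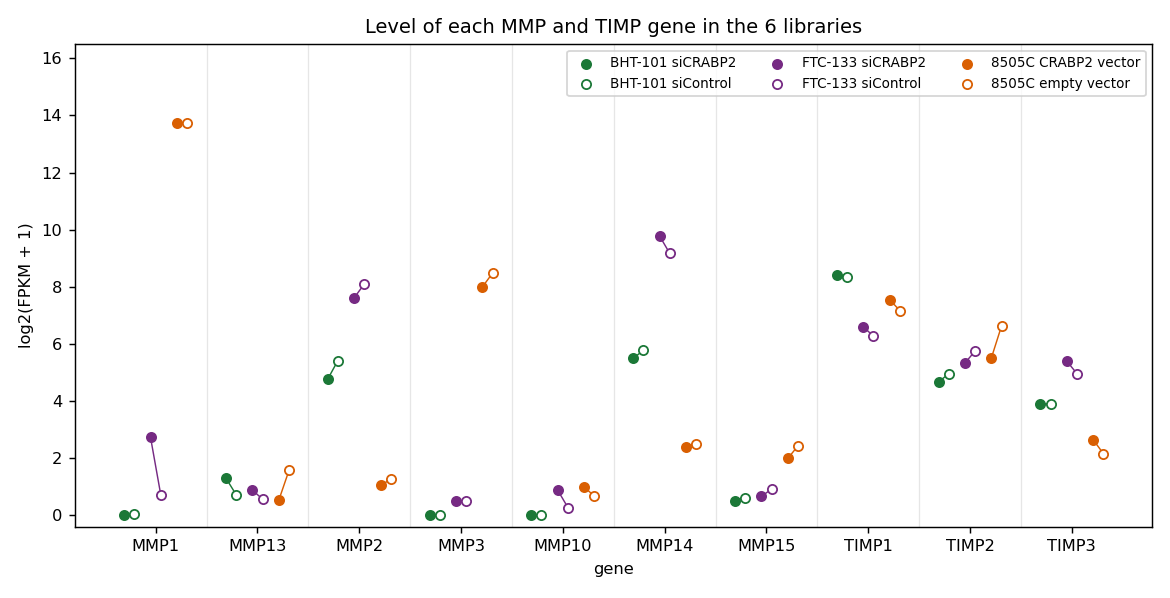
Level of each of the 10 genes in every library, on the log2(FPKM + 1) scale. Filled circles are siCRABP2 or CRABP2 vector libraries, open circles their siControl or empty vector partners, and a line joins the 2 libraries of a cell line. MMP1 and MMP3 stand high in 8505C alone, MMP2 and MMP14 are ordered FTC-133, BHT-101, 8505C, and the TIMP genes differ less between lines.

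MMP1 (ENSG00000196611, chromosome 11, 102789920 to 102798160, minus strand), interstitial collagenase, cuts fibrillar collagens. It was at 0 FPKM with siCRABP2 and 0.0363 FPKM with siControl in BHT-101 (0 and 2 reads, at or under the floor of 3 reads), at 5.62 FPKM with siCRABP2 and 0.654 FPKM with siControl in FTC-133, and at 13736 FPKM with the CRABP2 vector and 13763 FPKM with the empty vector in 8505C. In both 8505C libraries MMP1 ranked 1 among all genes by FPKM. It took 2.71% of reads in the CRABP2 vector library (exact 95% binomial interval 2.70 to 2.71) and 2.71% in the empty vector library (2.71 to 2.72). The 8505C difference of -0.0028 on log2(FPKM + 1) came from 597895 and 619830 reads, and the exact 95% interval of its log2 read ratio ran from -0.0080 to 0.0023. Such intervals cover counting error alone and compare 2 libraries, not the conditions, since reads without molecular tags are not independent molecules.

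In FTC-133 the MMP1 difference was 2.00 on log2(FPKM + 1). It rested on 301 reads with siCRABP2 and 32 with siControl. Per library total this was an 8.59-fold ratio, with a log2 ratio of 3.10 and a counting interval from 2.57 to 3.68. MMP1 shares 150 exon bases with WTAPP1, a pseudogene on the opposite strand, and the sources used here do not say whether counting used strand. WTAPP1 had 5 reads with siCRABP2 and 10 with siControl in FTC-133, and 144 with the CRABP2 vector and 108 with the empty vector in 8505C. Its part in the MMP1 values was not tested.

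MMP13 (ENSG00000137745, chromosome 11, 102942995 to 102955734, minus strand), collagenase 3, prefers type II collagen. Its levels were low throughout, at 1.47 FPKM with siCRABP2 and 0.657 with siControl in BHT-101, 0.844 with siCRABP2 and 0.484 with siControl in FTC-133, and 0.448 with the CRABP2 vector and 1.98 with the empty vector in 8505C. The siCRABP2 library was the higher of the pair in both knockdown lines, and the CRABP2 vector library was the lower of its pair. On log2(FPKM + 1) the differences were 0.58, 0.31 and -1.04. By reads, BHT-101 had 93 with siCRABP2 and 52 with siControl, a 2.24-fold ratio with a log2 counting interval from 0.66 to 1.68. FTC-133 had 65 with siCRABP2 and 34 with siControl, a 1.75-fold ratio with an interval from 0.18 to 1.45. 8505C had 28 with the CRABP2 vector and 128 with the empty vector, a level 4.42-fold lower with the vector (log2 ratio -2.14, interval -2.79 to -1.54). MMP13 stayed under 5 FPKM in every library, so the 8505C call ends under a filter at that level, and in BHT-101 the gene is called by read ratio but not on log2(FPKM + 1).

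MMP2 (ENSG00000087245, chromosome 16, 55389700 to 55506691, plus strand), gelatinase A, degrades type IV collagen of basement membranes and denatured collagen. It was at 26.2 FPKM with siCRABP2 and 41.7 FPKM with siControl in BHT-101, 195 FPKM with siCRABP2 and 274 FPKM with siControl in FTC-133, and 1.08 FPKM with the CRABP2 vector and 1.39 FPKM with the empty vector in 8505C. The siCRABP2 library was lower in both knockdown lines, and the CRABP2 vector library was also the lower one of its pair. The differences on log2(FPKM + 1) were -0.65, -0.49 and -0.21, all short of 2-fold. The log2 read ratios were -0.67 (interval -0.74 to -0.60), -0.49 (-0.51 to -0.47) and -0.37 (-0.74 to -0.0095). Among the siControl and empty vector libraries, MMP2 in FTC-133 was 6.56-fold its level in BHT-101 (95% counting interval 6.37 to 6.75) and 196-fold its level in 8505C (167 to 232).

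MMP3 (ENSG00000149968, chromosome 11, 102835801 to 102843803, minus strand), stromelysin 1, cuts proteoglycans and fibronectin and activates other MMP precursors. It was at 0 FPKM in both BHT-101 libraries, at 0.417 FPKM with siCRABP2 and 0.413 FPKM with siControl in FTC-133, and at 255 FPKM with the CRABP2 vector and 357 FPKM with the empty vector in 8505C. It was thus abundant in 8505C alone. There it ranked 117 with the CRABP2 vector and 74 with the empty vector among all genes by FPKM. Its difference in 8505C was -0.48 on log2(FPKM + 1), from 10429 reads with the CRABP2 vector and 15110 with the empty vector (log2 read ratio -0.49, interval -0.52 to -0.45). In the library with the empty vector, MMP3 was at least 6163-fold higher than in BHT-101 siControl, taking 3 reads per library as the floor. The 21 reads with siCRABP2 and 19 with siControl in FTC-133 left a counting interval of the log2 ratio from -0.95 to 0.99, so a 2-fold difference was at the edge of what this depth could show. MMP3 shares 32 exon bases with WTAPP1.

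MMP10 (ENSG00000166670, chromosome 11, 102770503 to 102780628, minus strand), stromelysin 2, was below 1 FPKM in every library and so counted as measured in none. It was at 0 in both BHT-101 libraries, at 0.836 FPKM with siCRABP2 and 0.206 FPKM with siControl in FTC-133, and at 0.978 FPKM with the CRABP2 vector and 0.597 FPKM with the empty vector in 8505C. In FTC-133 these were 40 reads with siCRABP2 and 9 with siControl, a 4.06-fold ratio with a log2 interval from 0.95 to 3.25. In 8505C they were 38 with the CRABP2 vector and 24 with the empty vector, and that interval ran from -0.06 to 1.51. MMP3, its closest relative in sequence, had nearly equal levels in the 2 FTC-133 libraries while MMP10 did not. In 8505C, where MMP3 had 10429 reads with the CRABP2 vector and 15110 with the empty vector, a small exchange of reads could have set the MMP10 value, and this was not tested.

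MMP1, MMP3, MMP10 and MMP13 stand in a cluster on chromosome 11 with MMP7, MMP20, MMP27, MMP8 and MMP12. Of these 9 genes, 3 were measured in 8505C (MMP1, MMP3 and MMP13), 1 in FTC-133 (MMP1) and 1 in BHT-101 (MMP13). MMP12, macrophage elastase, lies between MMP3 and MMP13 and reached 0.266 FPKM with the CRABP2 vector and 0.42 with the empty vector in 8505C. MMP7, matrilysin, was at 0.56 FPKM with siCRABP2 and 0.57 with siControl in BHT-101 and at most 0.127 FPKM in the other 4 libraries. MMP8, neutrophil collagenase, and MMP20, enamelysin, each did not exceed 0.0280 FPKM, and MMP27 was listed at 0 in all 6. The high levels in 8505C therefore covered 2 neighbouring genes of the cluster and not the genes on either side.

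**Figure D2:**
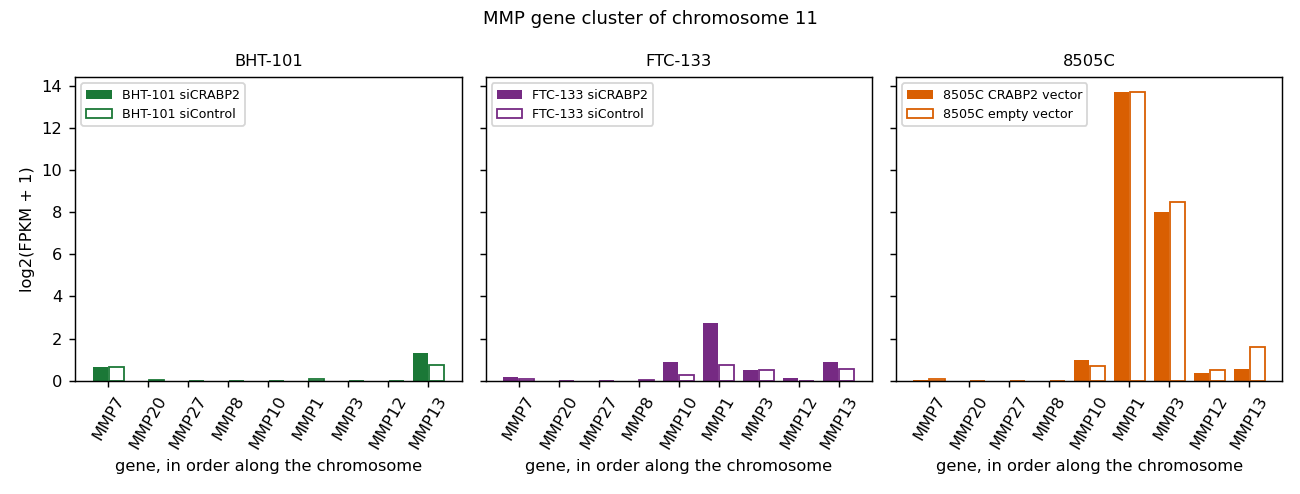
Level of the 9 MMP genes of the chromosome 11 cluster on the log2(FPKM + 1) scale, in their order along the chromosome (spacing not to scale). Filled bars are siCRABP2 or CRABP2 vector libraries and open bars siControl or empty vector libraries. MMP1 and MMP3 reach 13736 and 255 FPKM in the 8505C library with the CRABP2 vector, while most bars of BHT-101 are at or near 0.

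MMP14 (ENSG00000157227, chromosome 14, 22836557 to 22849027, plus strand), membrane type 1 MMP, cuts collagen at the cell surface. It was at 44.2 FPKM with siCRABP2 and 53.6 FPKM with siControl in BHT-101, 877 FPKM with siCRABP2 and 574 FPKM with siControl in FTC-133, and 4.26 FPKM with the CRABP2 vector and 4.71 FPKM with the empty vector in 8505C. The siCRABP2 library was the higher one in FTC-133 and the lower one in BHT-101. Differences on log2(FPKM + 1) were -0.27 in BHT-101, 0.61 in FTC-133 and -0.12 in 8505C. The log2 read ratio of FTC-133 had an interval from 0.60 to 0.63 on 106316 reads with siCRABP2 and 63561 with siControl, that of BHT-101 ran from -0.33 to -0.22, and that of 8505C from -0.34 to 0.05. MMP14 ranked 30 with siCRABP2 and 50 with siControl among all genes in FTC-133. The FTC-133 siControl level was 10.7-fold that of BHT-101 siControl (interval 10.4 to 10.99) and 122-fold that of the 8505C empty vector library (111 to 134).

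MMP15 (ENSG00000102996, chromosome 16, 58025566 to 58046901, plus strand), membrane type 2 MMP, was the weaker of the 2 membrane enzymes in every library. It was at 0.434 FPKM with siCRABP2 and 0.541 FPKM with siControl in BHT-101, 0.582 with siCRABP2 and 0.895 with siControl in FTC-133, and 2.99 with the CRABP2 vector and 4.42 with the empty vector in 8505C. It was lower in the siCRABP2 libraries and lower in the CRABP2 vector library, with log2 read ratios of -0.32 (interval -0.92 to 0.27), -0.62 (-1.09 to -0.15) and -0.56 (-0.79 to -0.34). In 8505C the levels of MMP14 and MMP15 were close, whereas in FTC-133 MMP15 stayed below 1 FPKM beside an MMP14 level among the highest of all genes.

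TIMP1 (ENSG00000102265, chromosome X, 47582313 to 47586789, plus strand) encodes a secreted inhibitor that blocks most soluble MMPs but acts weakly on the membrane types. It was at 343 FPKM with siCRABP2 and 320 FPKM with siControl in BHT-101, 95.6 FPKM with siCRABP2 and 76.8 FPKM with siControl in FTC-133, and 187 FPKM with the CRABP2 vector and 143 FPKM with the empty vector in 8505C. The siCRABP2 or CRABP2 vector library was the higher one of each pair, also where CRABP2 itself was moved in the opposite direction. The differences were small, at 0.10, 0.31 and 0.39 on log2(FPKM + 1), with log2 read ratio intervals of 0.06 to 0.13, 0.24 to 0.39 and 0.33 to 0.44.

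TIMP2 (ENSG00000035862, chromosome 17, 78852977 to 78925387, minus strand), the inhibitor that also bridges MMP14 and the MMP2 precursor, was at 24.3 FPKM with siCRABP2 and 30.2 FPKM with siControl in BHT-101, 39.4 FPKM with siCRABP2 and 53.0 FPKM with siControl in FTC-133, and 45.0 FPKM with the CRABP2 vector and 98.9 FPKM with the empty vector in 8505C. The siCRABP2 or CRABP2 vector library was the lower one in every pair. The 8505C difference of -1.12 on log2(FPKM + 1) was a 2.20-fold lower level with the CRABP2 vector, on 5596 reads against 12736 (log2 read ratio -1.14, interval -1.18 to -1.09). In the knockdown lines the differences were -0.30 and -0.42. TIMP2 shares 198 exon bases with CEP295NL on the same strand, a gene that did not exceed 0.0876 FPKM.

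TIMP3 (ENSG00000100234, chromosome 22, 32801701 to 32863043, plus strand), an inhibitor held in the matrix that also blocks ADAM and ADAMTS proteases, was at 13.8 FPKM with siCRABP2 and 14.01 FPKM with siControl in BHT-101, 41.2 FPKM with siCRABP2 and 30.1 FPKM with siControl in FTC-133, and 5.23 FPKM with the CRABP2 vector and 3.46 FPKM with the empty vector in 8505C. Its differences on log2(FPKM + 1) were -0.02, 0.44 and 0.48, with log2 read ratio intervals of -0.12 to 0.08, 0.39 to 0.52 and 0.40 to 0.79. In 8505C, TIMP3 and TIMP1 were thus higher with the CRABP2 vector and TIMP2 lower.

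**Figure D3:**
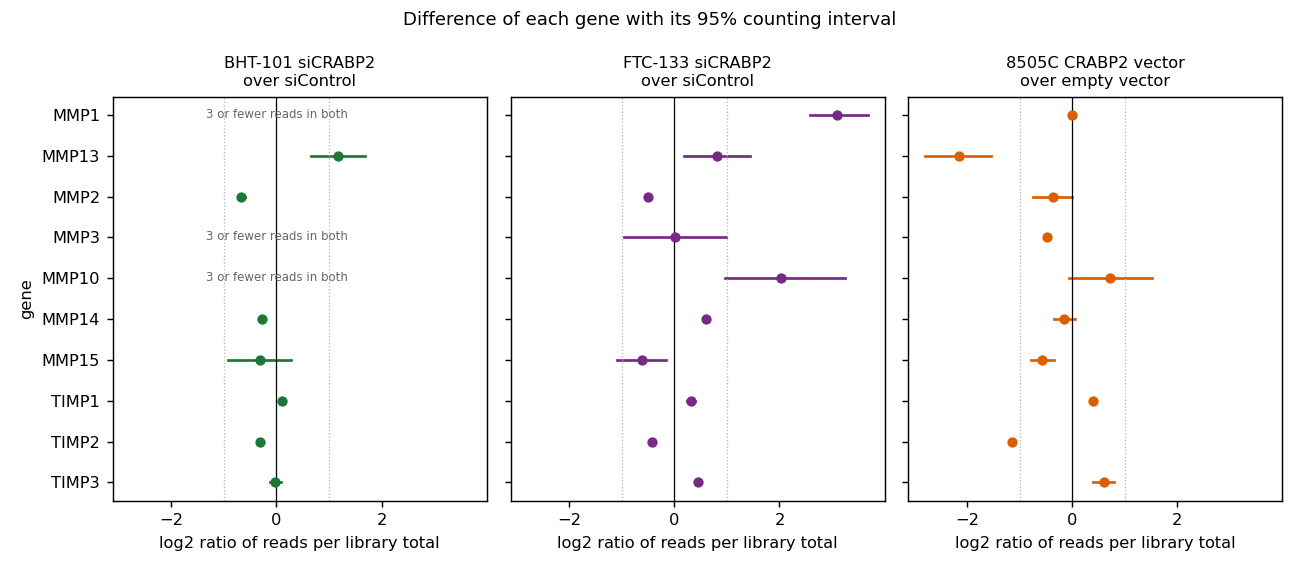
Log2 ratio of reads per library total for each gene, siCRABP2 over siControl or CRABP2 vector over empty vector, with exact 95% counting intervals as horizontal lines and dotted lines at 2-fold. MMP1 in FTC-133 (3.10) and MMP13 in 8505C (-2.14) lie farthest from 0, and genes with 3 or fewer reads in both libraries carry no point.

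Summed over the 7 enzymes and the 3 inhibitors, the transcript level of MMPs relative to TIMPs differed between lines by orders of magnitude. The ratio of the summed FPKM was 0.19 with siCRABP2 and 0.265 with siControl in BHT-101, 6.13 with siCRABP2 and 5.32 with siControl in FTC-133, and 59.1 with the CRABP2 vector and 57.7 with the empty vector in 8505C. MMP1 alone made 98.1% of the MMP sum with the CRABP2 vector and 97.4% with the empty vector in 8505C. MMP14 made 81.2% with siCRABP2 and 67.5% with siControl in FTC-133, and 61.1% with siCRABP2 and 55.5% with siControl in BHT-101. Among the inhibitors, TIMP1 made 90.0% of the TIMP sum with siCRABP2 and 87.9% with siControl in BHT-101, and TIMP2 made 19.0% with the CRABP2 vector and 40.4% with the empty vector in 8505C. These are transcript levels and carry no information on active enzyme.

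**Figure D4:**
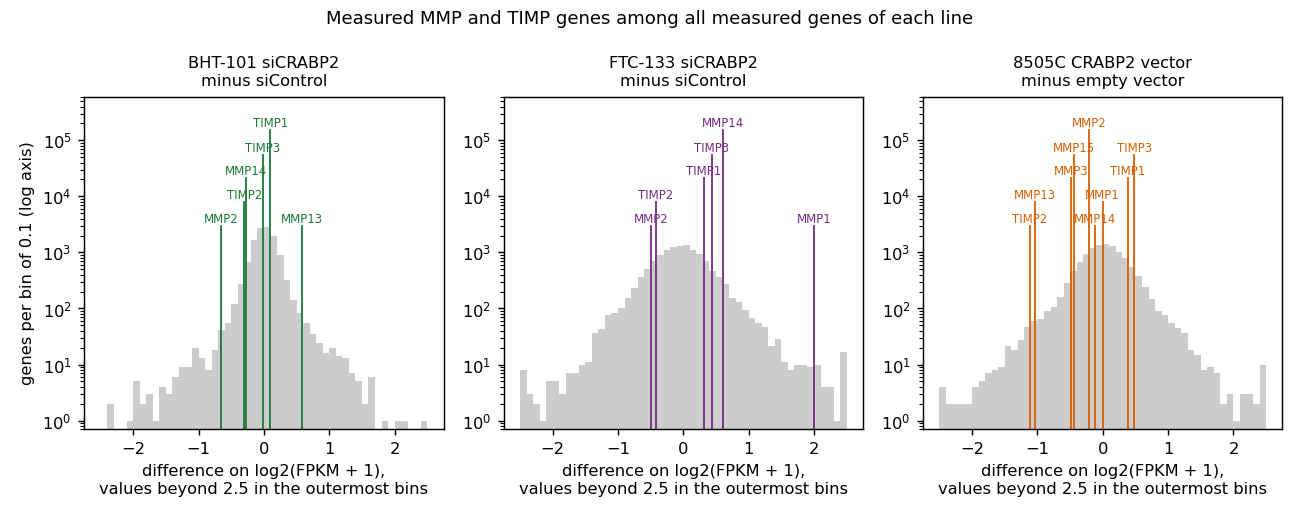
Differences of the measured MMP and TIMP genes (coloured lines, with heights chosen for the labels) over the distribution of all measured genes of each line (grey bars of width 0.1, counted on a log axis), on log2(FPKM + 1). Values beyond 2.5 in either direction are gathered in the outermost bins. MMP1 at 2.00 in FTC-133 stands in the upper tail, TIMP2 and MMP13 in 8505C stand in the lower tail, and most other lines fall within the bulk of genes.

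Whether the 2 knockdown lines shared a difference was asked with limma on log2(FPKM + 1), with the cell line as a block and Benjamini-Hochberg adjustment over all genes. The fit had 1 residual degree of freedom. Of 12953 genes tested, 0 passed (0% called). At an unadjusted p under 0.05, 314 were higher and 225 lower, together 4.16% of genes, where no change in any gene would give about 5%. MMP2, the lower gene with siCRABP2 in both lines, had a mean difference of -0.57 (SE 0.147, limma adjusted p = 0.869). TIMP2 had -0.36 (SE 0.147, limma adjusted p = 0.869). MMP14, TIMP1 and TIMP3 had 0.17, 0.20 and 0.21, with limma adjusted p from 0.869 to 0.908. MMP1, MMP3, MMP10, MMP13 and MMP15 did not reach 1 FPKM in 2 of these 4 libraries and were not tested.

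A second fit set the lower CRABP2 arm (siCRABP2 and empty vector) over the higher arm (siControl and CRABP2 vector) in all 6 libraries, again blocked by line, with 2 residual degrees of freedom. Here 0 of 11628 genes passed limma's adjusted threshold (0% called), with 193 higher and 179 lower at an unadjusted p under 0.05, together 3.2% of genes. MMP1 had 0.65 (SE 0.381), MMP2 -0.31 (SE 0.191), MMP14 0.15, TIMP1 0.01, TIMP2 0.13 and TIMP3 -0.02, all with a limma adjusted p of 0.999. MMP1 reached its value through FTC-133, since its difference was near 0 in the other lines. Without FTC-133, 46 of 10020 genes were higher and 41 lower in the lower arm over the remaining 4 libraries, with fewer residual degrees of freedom. None of the 5 genes tested there (MMP2, MMP14, TIMP1, TIMP2 and TIMP3) was among them. With so small a share called over all genes, the absence of calls among 5 says little about them.

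Between lines, the 2 libraries of each line formed 1 group and the CRABP2 manipulation stayed in the spread (limma, 3 residual degrees of freedom). Many genes differed in this fit: 62.1% of 13736 passed for 8505C minus BHT-101, 60.2% for 8505C minus FTC-133 and 48.9% for FTC-133 minus BHT-101. The median of all tested genes lay at -0.128 for 8505C minus FTC-133 and 0.163 for FTC-133 minus BHT-101. Separate culture of the 2 libraries of a line is not stated, so these p-values rest on the spread between 2 libraries. That spread is pooled over the 3 lines, also for a contrast of 2 of them. MMP10 did not pass the filter on low values, and MMP1, MMP3 and MMP15 passed it through their 8505C libraries, so that the direction of their difference between 8505C and the other lines was set by the filter and is given without a p.

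MMP1 was ordered 8505C, FTC-133, BHT-101, with differences of 12.02 for 8505C minus FTC-133 and 1.70 for FTC-133 minus BHT-101 (limma adjusted p = 0.0494). The second step lost its call without a filter (adjusted p = 0.145), under quantile normalization (0.0708) and without either BHT-101 library or either 8505C library (0.0843 to 0.154). MMP3 stood highest in 8505C, by 7.74 over FTC-133. The FTC-133 minus BHT-101 difference of 0.50 did not pass (limma adjusted p = 0.0674). MMP3 was at 0.413 and 0.417 FPKM in FTC-133 and at 0 in BHT-101, so its spread within lines came nearly all from 8505C. The FTC-133 minus BHT-101 difference passed at a pseudocount of 0.1 (adjusted p = 0.00048). MMP15 also stood highest in 8505C, by 1.42 over FTC-133 and 1.64 over BHT-101, while FTC-133 and BHT-101 were 0.22 apart (limma adjusted p = 0.375). No pair of lines differed in MMP13 beyond its spread, with differences of -0.29 to 0.33 and limma adjusted p from 0.47 to 0.943.

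MMP14 and MMP2 had the order FTC-133, BHT-101, 8505C, and each step passed. For FTC-133 minus BHT-101, MMP14 differed by 3.84 (limma adjusted p = 6.41e-05) and MMP2 by 2.77 (limma adjusted p = 0.000394). For 8505C minus BHT-101, they differed by -3.18 (limma adjusted p = 0.000106) and -3.94 (limma adjusted p = 8.63e-05). TIMP3 had the same order, with 1.28 for FTC-133 minus BHT-101 (limma adjusted p = 0.00433) and -1.50 for 8505C minus BHT-101 (limma adjusted p = 0.00154). TIMP1 was ordered BHT-101, 8505C, FTC-133, at -1.02 for 8505C minus BHT-101 (limma adjusted p = 0.00448) and 0.92 for 8505C minus FTC-133 (limma adjusted p = 0.0071).

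TIMP2 was higher in 8505C than in BHT-101 by 1.27 (limma adjusted p = 0.0231). This call was lost without a filter (0.0864) and without BHT-101 siControl, BHT-101 siCRABP2 or the 8505C empty vector library (0.0587 to 0.109). Neighbouring lines in the order of TIMP2 did not pass with the pooled spread, with 0.54 for 8505C minus FTC-133 (limma adjusted p = 0.248) and 0.73 for FTC-133 minus BHT-101 (limma adjusted p = 0.144). Without the 8505C CRABP2 vector library the 8505C minus FTC-133 difference was 1.10 (adjusted p = 0.0181), and without the 8505C empty vector library it was -0.02 (adjusted p = 0.951). The FTC-133 minus BHT-101 difference passed without either 8505C library (adjusted p = 0.0328 and 0.033).

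The summed level of genes taken as fibroblast markers had the same order of lines as MMP2, MMP14 and TIMP3, but single genes of the list did not all follow it. Of 7 such genes, 4 were measured in FTC-133, 3 in BHT-101 and 0 in 8505C. Their summed level was 152 FPKM with siCRABP2 and 173 with siControl in FTC-133, 79.1 with siCRABP2 and 84.0 with siControl in BHT-101, and 0.426 with the CRABP2 vector and 1.09 with the empty vector in 8505C. COL1A1, a chain of type I collagen, was at 24.1 FPKM with siCRABP2 and 39.6 with siControl in FTC-133, and at 0.962 with siCRABP2 and 1.73 with siControl in BHT-101. COL1A2 and FAP were likewise highest in FTC-133. LUM, which binds collagen fibrils, ran the other way, at 6.53 FPKM with siCRABP2 and 13.2 with siControl in FTC-133 and at 75.5 with siCRABP2 and 80.2 with siControl in BHT-101. PDGFRA, a growth factor receptor, was also higher in BHT-101, at 2.48 FPKM with siCRABP2 and 1.90 with siControl, than in FTC-133, where it did not exceed 0.0338 FPKM. DCN was highest in the 8505C empty vector library, at 0.649 FPKM. The part of these genes in the order of the lines was not tested. All libraries came from established cancer lines, so these sums describe the RNA of a line and do not measure a share of fibroblasts. In bulk RNA, fewer cells that express a gene and less RNA per cell cannot be told apart. Epithelial markers ran otherwise, with 5 of 5 measured in BHT-101, 3 in FTC-133 and 2 in 8505C. Their summed levels were 776 FPKM with siCRABP2 and 737 with siControl in BHT-101, 52.6 with siCRABP2 and 54.5 with siControl in FTC-133, and 235 with the CRABP2 vector and 148 with the empty vector in 8505C. The 8505C sums were nearly all KRT8 and KRT18, whereas EPCAM, CDH1 and KRT19 were lower in 8505C than in FTC-133. The endothelial list summed to at most 3.24 FPKM in any library, and the leukocyte list to at most 16.52 FPKM, nearly all of it CD14 in 8505C.

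Of 16 further MMP genes and TIMP4, 3 were measured in BHT-101, 3 in FTC-133 and 4 in 8505C. TIMP4, the fourth inhibitor, was at 3.30 FPKM with the CRABP2 vector and 8.87 FPKM with the empty vector in 8505C, a difference of -1.20 on log2(FPKM + 1) in the direction of TIMP2. MMP28, epilysin, was at 1.09 FPKM with the CRABP2 vector and 0.0686 with the empty vector (0.97). MMP11, stromelysin 3, was at 0.765 FPKM with siCRABP2 and 1.74 with siControl in BHT-101 (-0.63), and MMP16, a membrane type MMP, at 2.32 with siCRABP2 and 3.79 with siControl in FTC-133 (-0.53). MMP9, the other gelatinase, did not exceed 0.233 FPKM in any library.

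Genes that activate MMPs or hold them at the cell surface had a median difference of -0.08 over 15 measured in BHT-101, 0.17 over 16 in FTC-133 and -0.40 over 15 in 8505C. In FTC-133, 3 were at least 2-fold higher with siCRABP2 and 1 was lower, beside 2.36% and 2.35% of all measured genes. CLDN1, a tight junction protein that recruits MMP14 and MMP2, was at 4.63 FPKM with siCRABP2 and 0.866 with siControl there (1.59), and THBS1, a matrix protein that binds MMP2, was at 8.04 with siCRABP2 and 29.05 with siControl (-1.73). CLDN1 reached 1 FPKM only with siCRABP2, so the filter set its direction. In 8505C, 2 were called lower with the CRABP2 vector, beside 1.86% of all measured genes. Both are subunits of the integrin that docks MMP2. ITGAV was at 13.2 FPKM with the CRABP2 vector and 33.1 with the empty vector (-1.26). ITGB3 was at 1.83 FPKM with the CRABP2 vector and 6.60 with the empty vector (-1.42). In BHT-101 none of the 15 was called, beside 0.589% of all measured genes called higher and 0.539% lower. The plasminogen activators PLAT and PLAU had 0.57 and -0.49 there.

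Matrix proteins cut by MMPs lay mostly below 0 in all 3 comparisons, in 8 of 11 measured genes in BHT-101, 10 of 14 in FTC-133 and 8 of 10 in 8505C. Medians were -0.12, -0.51 and -0.36, beside 0.01, -0.04 and 0.02 over all measured genes. Genes that reached 1 FPKM in 1 library only had their direction set by the filter. Below 0 these were COL1A1 in BHT-101, COL3A1 and BGN in FTC-133, and COL3A1 and HSPG2 in 8505C. Above 0 it was VCAN in 8505C. Called lower were 1 of 11 in BHT-101, 2 of 14 in FTC-133 and 1 of 10 in 8505C, and 0 were called higher. Of all measured genes, 0.539%, 2.35% and 1.86% were called lower. BGN, a small proteoglycan, was at 2.81 FPKM with siCRABP2 and 7.07 with siControl in BHT-101 (-1.08). COL5A1, a chain of type V collagen, was at 36.3 FPKM with siCRABP2 and 94.5 with siControl in FTC-133 (-1.36), and TNC, tenascin C, at 56.2 with siCRABP2 and 126 with siControl (-1.15). COL3A1, type III collagen, was at 0.778 FPKM with the CRABP2 vector and 2.67 with the empty vector in 8505C (-1.05). COL5A1 was also lower with the CRABP2 vector in 8505C, by less than 2-fold (-0.97).

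Of the ADAM proteases, 6 were measured in BHT-101, 6 in FTC-133 and 7 in 8505C. None was called, with medians of 0.06, 0.03 and -0.11. Of all measured genes, 0.589%, 2.36% and 1.85% were called higher and 0.539%, 2.35% and 1.86% lower. At such shares, the absence of calls among so few genes says little about them. Of the ADAMTS proteases, whose inhibitor is TIMP3, 1 was called. This was in 8505C, where 5 were measured and 1.85% of all measured genes were called higher. ADAMTS1, which cuts versican and aggrecan, was there at 5.67 FPKM with the CRABP2 vector and 1.69 with the empty vector (1.31). The retinoic acid receptors, 5 of them measured in each line, had no call beside the same shares of all genes. Their medians were -0.01, -0.19 and -0.04. RARB, itself induced by retinoic acid in many cells, was at 8.41 FPKM with the CRABP2 vector and 4.92 with the empty vector in 8505C (0.67). For siCRABP2 minus siControl, RARB had 0.21 in BHT-101 and -0.19 in FTC-133. Of the 5 receptors in 8505C, 2 lay above 0 (RARB, and RARG at 0.50) and 3 below, with RXRA at -0.41. In FTC-133, 1 lay above 0 and 4 below, with RARA at -0.62 and RXRA at -0.51. A link of these differences to retinoic acid was not tested.

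Transcription factors of MMP promoters had medians of -0.07 in BHT-101, 0.15 in FTC-133 and -0.05 in 8505C. FOS was at 4.63 FPKM with siCRABP2 and 31.95 with siControl in FTC-133 (-2.55), where MMP1 was higher with siCRABP2, and CEBPB, a factor of inflammatory genes, was at 81.7 with siCRABP2 and 33.8 with siControl (1.25). FOSL1, another AP-1 subunit, was at 202 FPKM with the CRABP2 vector and 46.5 with the empty vector in 8505C (2.10), where MMP1 was level and MMP3 and MMP13 were lower. In BHT-101, FOS and JUN had -0.72 and -0.64.

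Cytokines known to induce MMPs held the largest difference of these lists in FTC-133. In FTC-133, 9 of 11 measured were above 0, 6 of them at least 2-fold higher with siCRABP2, and the median was 1.11. IL1A, IL1B, TNF and EGF reached 1 FPKM there only with siCRABP2, so the filter set their direction. CXCL8, IL6 and LIF were at least 2-fold higher with both libraries above 1 FPKM, and TGFA and HBEGF lay below 0. Of all measured genes there, 2.36% were called higher. CXCL8, interleukin 8, was at 90.3 FPKM with siCRABP2 and 2.72 with siControl (4.62), and IL1B, an inducer of MMP1 and MMP3 in many cells, at 9.01 with siCRABP2 and 0.52 with siControl (2.72). In 8505C, 4 of 10 were above 0 and 6 below, and the median was -0.39. Of the 10, 4 were called lower with the CRABP2 vector, beside 1.86% of all measured genes. CXCL8 was there at 494 FPKM with the CRABP2 vector and 1136 with the empty vector (-1.20), and IL1A, a second form of interleukin 1, at 83.5 with the CRABP2 vector and 187 with the empty vector (-1.15). In BHT-101 the median was -0.05, and none of 8 was called, beside 0.589% of all measured genes called higher and 0.539% lower. Most of the measured cytokines, and MMP1, were thus higher with siCRABP2 in FTC-133. For MMP1, as for IL1A, IL1B, TNF and EGF, the filter set that direction. In 8505C, 6 of the 10 cytokines were lower with the CRABP2 vector and 4 higher. There MMP1 was level, and MMP3 (-0.48) and MMP13 (-1.04) were lower. Any link was not tested.

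**Figure D5:**
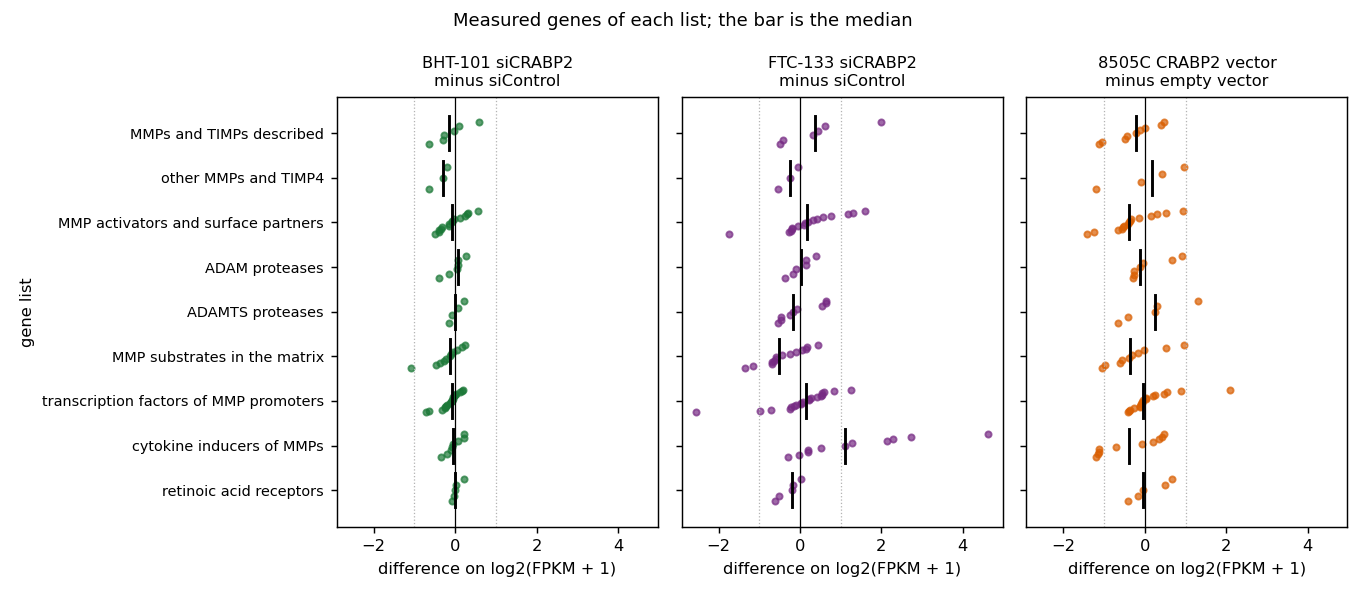
Differences on log2(FPKM + 1) of the measured genes of each list, siCRABP2 minus siControl or CRABP2 vector minus empty vector. Each point is a gene, black bars are list medians and dotted lines mark 2-fold. The cytokine inducers spread widest in FTC-133, with a median of 1.11 in FTC-133 and -0.39 in 8505C, and in BHT-101 the only point beyond 2-fold is BGN at -1.08.

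The genes whose pattern over the 6 libraries was most like each enzyme or inhibitor were found by Euclidean distance on log2(FPKM + 1) after each gene's own mean was taken off, among 8036 protein-coding genes. All genes share the same 3 lines with 2 libraries each, and the distances describe these 6 libraries only. MMP1 was nearest to MMP3 (distance 5.94), and MMP3 to SFRP1, a secreted WNT antagonist (0.642), and IL1RL1, the interleukin 33 receptor (0.975). SFRP1 was at 215 FPKM with the CRABP2 vector and 207 FPKM with the empty vector in 8505C and at most 0.194 FPKM in the other 4 libraries. MMP2 was nearest to PAGE2, a cancer-testis antigen (1.31), and MMP14 (1.38), and MMP14 to PAGE2 (1.17) and MMP2.

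MMP15 was nearest to AMIGO1, a neuronal adhesion protein (0.182), and GABBR1, a subunit of the GABA-B receptor (0.19), and MMP13 to EBI3 (0.477) and PDE9A (0.645), all genes of low level. TIMP1 was nearest to RPL10, a ribosomal protein whose copies elsewhere in the genome make its reads uncertain (0.257), and RNF125, a ubiquitin ligase (0.266). TIMP2 was nearest to RCAN2, a calcineurin inhibitor (0.367), and KCNJ2, a potassium channel (0.379). RCAN2 was at 0.744 FPKM with the CRABP2 vector and 3.28 with the empty vector in 8505C. TIMP3 was nearest to TUBB2A, a beta tubulin (0.297), and B4GALT2, a galactosyltransferase (0.334).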

How the data were processed

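RNA sequencing values of 6 libraries, 1 per group, were analysed, with groups taken from the sample titles. The authors deposited FPKM values for 58884 gene identifiers. Per the submitters' processing notes, the tools were FastQC, Trimmomatic 0.38 and featureCounts 2.0.0, and the build was GRCh38. Aligner, annotation release and strand setting: not given in the sources used here. Gene names, positions and exon lengths came from GENCODE release 29, which held 58611 identifiers and may not be the authors' release.

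FPKM times exon length came out as whole multiples of 1 step per library, which gave the read totals. With the release 29 length, 67.9 to 69.9% of genes above 0 in a library gave whole reads at a tolerance of 0.001 reads. All 10 genes described gave whole reads in every library with their release 29 length or another length found by search. Exact (Clopper-Pearson) 95% intervals of read ratios and a floor of 3 reads cover counting error only.

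Differences were taken on log2(FPKM + 1), a scale computed here from the deposited values. The 3 fits used limma 3.58.1 under R 4.3.3, a variance trend and Benjamini-Hochberg adjustment at 0.05 over all genes, with FPKM of at least 1 in 2 or more libraries (3 or more in the fit of CRABP2 arms), and were tested on simulated data. Libraries of the same labelled cell line were paired in the first 2 fits. Alternatives were pseudocounts of 0.1 and 0.5, no filter or FPKM of at least 5, median centring, quantile normalization, no term for the line, leaving out each line or library, and, added after seeing the data, read ratios without the FPKM filter, for genes with over 3 reads.

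Named genes are CRABP2, the 10 genes, the chromosome 11 cluster, up to 2 measured genes per list and line with the largest difference, and the 2 nearest genes by pattern. MMP9, WTAPP1, CEP295NL and the single markers PTPRC, TG, SLC5A5, COL1A2, FAP and DCN were named outside this rule. The genes and lists were chosen with earlier results of these data known.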

Additional observations from a re-analysis of the deposited data

Results flagged for a closer look

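MMP14 differed in opposite directions in the 2 knockdown lines on log2(FPKM + 1). The value of siCRABP2 minus siControl was -0.272 in BHT-101 (44.2 FPKM with siCRABP2 and 53.6 with siControl) and 0.6101 in FTC-133 (877 FPKM with siCRABP2 and 574 with siControl). With 1 library per group, the difference between the lines was not tested.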

How the results depend on the processing

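The 27 differences within a line that were recomputed under 4 alternatives (pseudocounts of 0.1 and 0.5, median centring, quantile normalization) gave 108 values, of which 97 moved by less than the 95% counting interval of the read ratio, 11 moved by more and 0 changed sign. That interval is wide for genes of few reads: at a pseudocount of 0.1, MMP10 in FTC-133 moved to 1.61 and MMP13 in BHT-101 to 1.05, against 0.61 and 0.58. Counts by size moved with the scale: at a pseudocount of 0.1 they were 302 genes in BHT-101, 1278 in FTC-133 and 895 in 8505C, and at FPKM of at least 5 they were 34, 323 and 208, against 136, 605 and 435. Of the genes described, MMP13 was then called in BHT-101 (1 gene, at a pseudocount of 0.1 and by read ratio), MMP1 and MMP10 were called in FTC-133 by read ratio, which also has no FPKM filter and so admits MMP10 (2 genes), and at FPKM of at least 5 only TIMP2 was called in 8505C (1 gene). The causes were not tested beyond the construction of these alternatives.

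Fits without the replicate block for the line gave 0 calls in both, with 11 genes higher and 11 lower at an unadjusted limma p under 0.05 in the knockdown fit and 2 and 2 in the fit of CRABP2 arms. Leaving out 1 line gave 0 to 87 calls in the fit of arms, the 87 without FTC-133 (of 10020 genes tested). It left no residual degrees of freedom in the knockdown fit, where MMP14 then ranged from -0.27 (without FTC-133) to 0.61 and TIMP3 from -0.0185 (without FTC-133) to 0.44. In the fit of arms, where none of these passed, the ranges crossed 0: MMP14 from -0.076 (without FTC-133) to 0.365 (without BHT-101), TIMP1 from -0.14 (without FTC-133) to 0.204 (without 8505C), TIMP2 from -0.36 (without 8505C) to 0.409 (without FTC-133) and TIMP3 from -0.251 (without FTC-133) to 0.21 (without 8505C). In the fit of lines, leaving out 1 library gave 5165 to 8979 calls for 8505C minus BHT-101 and 2906 to 6795 for FTC-133 minus BHT-101, lowest without BHT-101 siControl (5165 and 2906) and next without BHT-101 siCRABP2 (5307 and 3001). MMP13 for 8505C minus BHT-101 was -0.0309 at a pseudocount of 0.1, and -0.25 (without BHT-101 siControl) to 0.558 (without the 8505C CRABP2 vector library), and TIMP2 for 8505C minus FTC-133 was -0.0231 without the 8505C empty vector library and 1.097 without the CRABP2 vector library. Low read numbers limit MMP10, MMP13 and MMP15, and MMP1 outside 8505C.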
